A study of Bos taurus with 60 samples.

Results

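Expression of 3 genes of blood vessel growth, VEGFA, ANGPT2 and APLN, was followed in the mammary gland of dairy cows from late lactation through the dry period. They were taken as a list of names, and each was found by pairing its symbol with an assembled locus. The 3 loci, XLOC_013129 (VEGFA, ENSBTAG00000005339), XLOC_015546 (ANGPT2, ENSBTAG00000011034) and XLOC_024657 (APLN, ENSBTAG00000019993), are among 25223 loci with counts, of which 14714 were tested. Each of the 3 loci holds a single ENSEMBL gene. The tissue came from 12 multiparous Holstein cows that were pregnant and were dried off ahead of their expected calving. During the dry period 6 cows had shade only (heat-stressed, HT) and 6 had shade with fans and soakers (cooled, CL). Each treatment had its own pen, so differences between pens and effects of cooling cannot be told apart. Each cow was biopsied once before dry-off (D-3) and on D3, D7, D14 and again D25 after it, for 60 RNA-Seq libraries in 10 groups of 6 cows. The paper states that the biopsies of a cow alternated between glands of the udder from day to day. Within-cow changes may therefore compare different sites as well as different days. The D-3 biopsies preceded the treatments, so that HT and CL at D-3 name the pens to which the cows then went. No cells were sorted, and the biopsies, trimmed of visible fat, hold epithelium, stroma and vessels together.

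The lactating udder is among the most heavily perfused tissues, and its capillary bed is remodelled when milking stops. VEGFA, a secreted growth factor induced by low oxygen and made in the gland largely by epithelial cells, acts on endothelial cells through the receptors FLT1 and KDR. ANGPT2 is made mostly by endothelial cells and counters ANGPT1 at the receptor TEK (TIE2), which loosens vessel walls and, depending on VEGFA, allows sprouting or regression. APLN encodes apelin, a peptide ligand of the receptor APLNR that is typical of endothelial tip cells and is also secreted by adipocytes.

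Total counts per library ranged from 20525083 to 26183990 with a median of 22637562. Behind the values of the members were 975 to 2496 reads for VEGFA, 278 to 2595 for ANGPT2 and 32 to 1431 for APLN, so that counting error was largest for APLN at D3. Levels are given as CPM (counts scaled to a common library size) on TMM-scaled library sizes, and since CPM are not divided by transcript length, no level of one gene was compared with that of another. Some libraries stood apart. At D-3 the milk protein genes CSN1S1, CSN2 and LALBA took 40.2% to 49.8% of all counts in 5 libraries (cows 7965, 8564 and 8647 of CL, 8541 and 8713 of HT) and 0.19% to 8.03% in the other 7, and the TMM factors of the 5 were 0.30 to 0.42, against 1.02 to 1.21. The D14 library of cow 7965 had the lowest CPM of all 60 libraries for the epithelial keratins KRT19 (3.36 CPM, against 231 or more in the other D14 libraries) and KRT5 (6.58 CPM, against 119 or more) and the highest for the stromal gene DCN (5396 CPM, against at most 1559). The D14 and D25 libraries of cow 8513 deviated from their group means more like the earlier libraries of cow 8660 (mean correlation 0.51) than like its own (-0.10), and those of cow 8660 more like the earlier ones of cow 8513 (0.37) than like its own (0.12). Results were therefore also computed without these libraries.

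**Figure D1:**
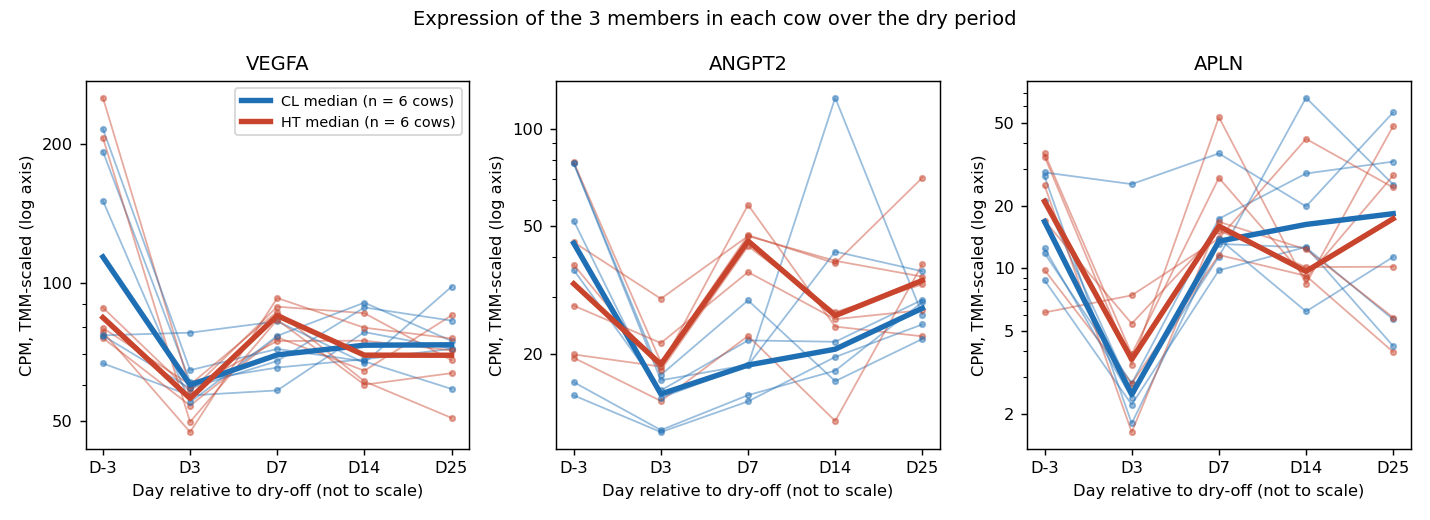
CPM on TMM-scaled library sizes (log axis) of VEGFA, ANGPT2 and APLN at each sampling day, not drawn to scale in time. Each thin line is 1 cow, thick lines are medians of 6 CL (blue) and 6 HT (red) cows. All 3 genes have their lowest median at D3, and a single CL cow (8686) holds APLN at 25.4 CPM at that time.

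The early dry period was first examined by comparing D3 vs. D-3, that is, shortly after and shortly before milking stopped. All 3 genes were lower at D3, by 1.15 on the log2 scale for VEGFA, 1.28 for ANGPT2 and 1.95 for APLN. Each passed an FDR of 0.05 over all tested loci in edgeR's quasi-likelihood test, a threshold that 15.1% of loci passed in this comparison and 9.04% passed as lower. This comparison gave the tables through which the symbols were paired, so the count of 3 of 3 members called is given beside that background and nothing is read from it.

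At D-3 VEGFA had 66.7 CPM in the lowest cow, a median of 84.0 and 253 in the highest, and at D3 it had 47.3, 58.4 and 77.9 CPM. The D-3 values fell into a high and a low set, with cows 8564, 7965, 8713, 8647 and 8541 at 151, 193, 207, 216 and 253 CPM and the other 7 cows between 66.7 and 88.3 CPM. The log2 fold change was -1.15 (SE 0.16), with an FDR of 1.82e-06 in edgeR's quasi-likelihood test, the 6th smallest p-value of 14714 loci. Of the 12 cows, 11 were lower at D3 and cow 8686 was 0.02 higher on the log2 scale, and the mean within-cow change of -0.99 ± 0.76 (SD, n = 12) had p = 9.8e-04 in an exact two-sided sign-flip permutation test.

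ANGPT2 had a median of 37.1 CPM (14.9 to 78.6) at D-3 and of 16.9 CPM (11.5 to 29.7) at D3, so the times overlapped. The highest D-3 values were those of cows 8314, 8647 and 7965 at 78.6, 78.0 and 78.0 CPM. Its log2 fold change of -1.28 (SE 0.29) had an FDR of 0.00165 in edgeR's quasi-likelihood test. All 12 cows were lower at D3 on TMM-scaled values, with changes between -2.23 and -0.12, and 9 of 12 were on library sizes alone. In the exact sign-flip permutation test the mean within-cow change of -1.08 ± 0.79 (SD, n = 12) had p = 4.9e-04, the smallest value that the sign changes of 12 cows can give, and it was -0.51 (p = 0.0381) on library sizes alone.

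APLN had a median of 19.0 CPM (6.14 to 35.7) at D-3 and of 2.80 CPM (1.63 to 25.4) at D3. Cow 8686 stood apart at D3, with 25.4 CPM, while the other 11 cows had 1.63 to 7.42 CPM. The log2 fold change was -1.95 (SE 0.45, FDR of 0.0018 in edgeR's quasi-likelihood test), and without cow 8686 it was -2.52. In the exact sign-flip permutation test the mean within-cow change was -2.24 ± 1.32 (SD, n = 12, p = 0.0015), with 11 cows lower and cow 8513 higher by 0.27.

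The size of the D3 vs. D-3 differences depended on the 5 milk-rich D-3 libraries and on the scaling. When library sizes were used without TMM factors, which moved the median log2 fold change of all loci from -0.01 to 0.35, the differences were -0.40 (edgeR FDR of 0.0104) for VEGFA, -0.75 (FDR of 0.05001, no longer called) for ANGPT2 and -1.56 (FDR of 0.0207) for APLN, when 16.2% of loci passed. Relative to that median they were -0.75, -1.10 and -1.90. Without the 5 libraries, a choice made after seeing the data, the TMM-scaled differences were -0.41 (edgeR FDR of 0.0612), -0.92 (FDR of 0.204) and -2.02 (FDR of 0.0908), while 18 loci in all, 0.122%, passed the threshold. In the 7 other cows alone, the mean within-cow changes were -0.40 ± 0.24 for VEGFA (SD, n = 7, 6 cows lower), -0.81 ± 0.78 for ANGPT2 (7 cows lower) and -1.77 ± 1.38 for APLN (6 cows lower). Their exact sign-flip permutation p-values were 0.0312, 0.0156 and 0.0469, the second being the smallest possible with 7 cows. All 3 genes were thus lower at D3 under each of these settings, and the FDR fell on either side of the threshold.

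**Figure D2:**
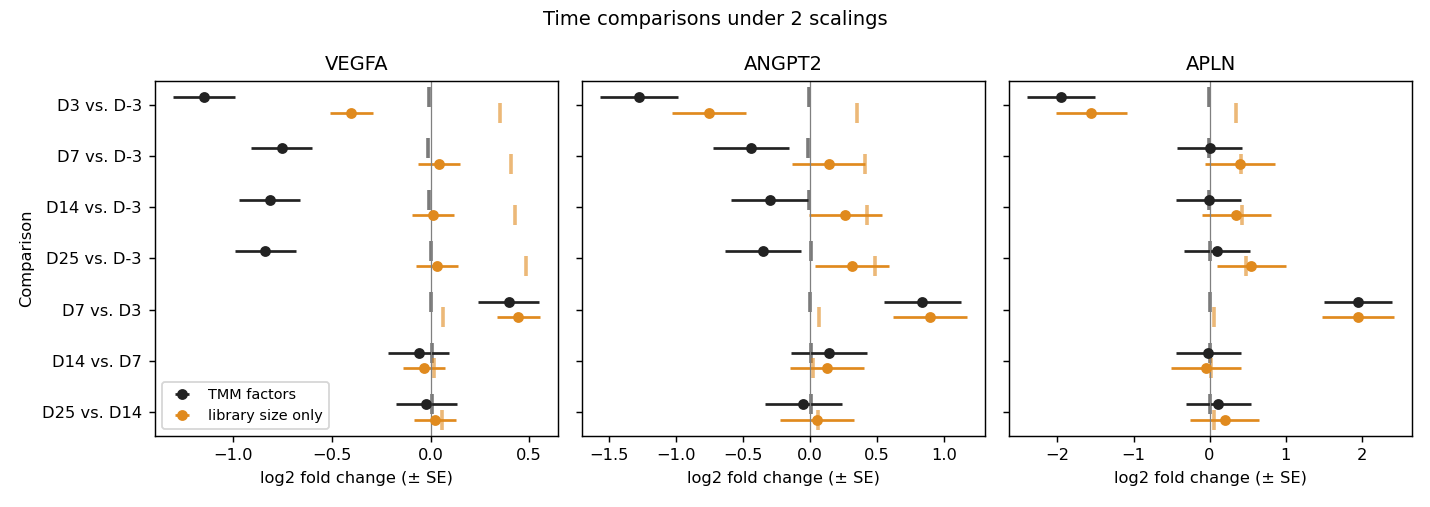
log2 fold changes (points, with bars of 1 SE) of the 3 genes in 7 comparisons of time points, on TMM-scaled library sizes (black) and on library sizes alone (orange). Short vertical marks give the median of all 14714 loci under the same scaling. The D3 vs. D-3 points lie below 0 and below the median mark under both scalings, whereas the VEGFA points for later days vs. D-3 move from about -0.8 to about 0.

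The relation of the members to milk protein reads was examined across the 12 cows at D-3, before any treatment. The largest gap between neighbouring log2 shares was 2.45, under the limit of 2.68 past which the cows would have been treated as separate clusters. On TMM-scaled values VEGFA correlated with the log2 share, with r = 0.91 and Spearman's rho = 0.89, with permutation p-values of 1.2e-04 and 3.3e-04. Without the 2 cows farthest from the median share r was 0.89, and among the 7 cows under 10% it was 0.50. On library sizes alone the VEGFA correlation was negative, with r = -0.61 (permutation p = 0.0344), and VEGFA then ranged from 59.1 to 92.1 CPM without the split into a high and a low set. The TMM factor itself moved with the milk share, and 268 other loci had a correlation at least as high on TMM-scaled values. ANGPT2 had r = 0.52 and rho = 0.48 on TMM-scaled values (permutation p = 0.0840 and 0.123) and r = 0.45 without the 2 farthest cows, and r = -0.39 (permutation p = 0.212) on library sizes alone. APLN had r = 0.004 and rho = 0.06 (permutation p = 0.990 and 0.853) and r = -0.18 without those cows, but r = -0.65 (permutation p = 0.0269) on library sizes alone. The adjusted values over these 3 relations are not given, since the 3 genes were chosen with earlier results known.

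**Figure D3:**
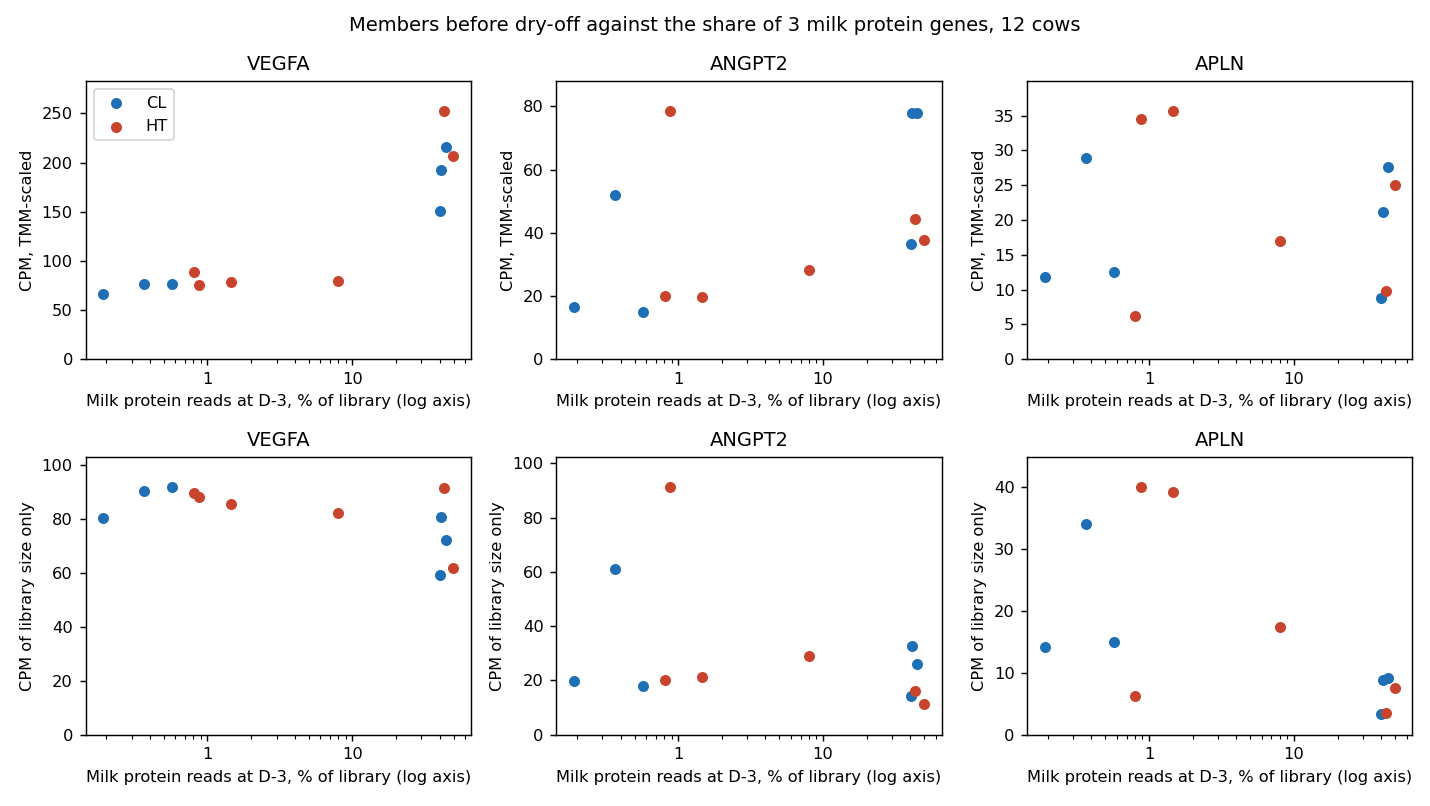
Levels of the 3 genes at D-3 in 12 cows against the percentage of library counts taken by CSN1S1, CSN2 and LALBA (log axis), on TMM-scaled library sizes (upper row) and on library sizes alone (lower row), with CL cows in blue and HT cows in red. The 5 milk-rich libraries hold the 5 highest VEGFA values, 151 to 253 CPM, in the upper row and not in the lower row.

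The following days were examined by comparing D7 vs. D3, when involution was under way. All 3 genes were higher at D7 in 12 of 12 cows, and the share of all loci with 1 direction in every cow is not given. APLN rose by 1.95 on the log2 scale and passed the FDR threshold, which 2.92% of loci passed in this comparison and 0.625% passed as higher. ANGPT2 and VEGFA did not pass it in the fit of all 60 samples. Tables of this comparison were also used to pair the symbols, so the APLN call is given beside that background and nothing is read from it. The direction in every cow was the same on library sizes alone. Of the cell type markers MYH2, KRT5 and the myoepithelial gene MYLK fell by 4.46, 1.03 and 0.53 on the log2 scale (edgeR FDR of 0.00253, 0.0489 and 0.0484), and ADIPOQ, EMCN and ROBO4 differed by 1.33, 0.20 and 0.35 (FDR of 0.0895, 0.547 and 0.497), of which ADIPOQ passed with the cow as a replicate block (FDR of 0.0414). MYH7, a skeletal muscle gene like MYH2, went the other way and differed by 0.95 (edgeR FDR of 0.131). The luminal keratin KRT19 differed by -0.995, the vessel wall gene MCAM by 0.79 and the stromal gene DCN by 0.51 (edgeR FDR of 0.0927, 0.182 and 0.261). The part of these markers in the differences of the members was not tested.

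APLN ranged from 9.79 to 53.3 CPM at D7 (median 14.6). All 11 cows below 8 CPM at D3 were above 9 CPM at D7, and only cow 8686 at D3 overlapped with the D7 values. The log2 fold change of 1.95 (SE 0.45) had an FDR of 0.0123 in edgeR's quasi-likelihood test and was 2.48 without cow 8686. Within cows the change was 2.25 ± 0.97 (SD, n = 12), with an exact sign-flip permutation p of 4.9e-04, and ran from 0.49 in cow 8686 to 3.92. The D7 vs. D-3 difference of APLN was 0.001 (SE 0.43).

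ANGPT2 ranged from 14.3 to 58.0 CPM at D7 (median 26.1), and these values overlapped with those of D3. The log2 fold change was 0.84 (SE 0.29) with an FDR of 0.0961 in edgeR's quasi-likelihood test, and with the cow as a replicate block it was 0.80 with an FDR of 0.0354, when 5.99% of loci passed. It was also past the threshold with only the samples of D3 and D7 (FDR of 0.0396) and without the D14 library of cow 7965 (FDR of 0.0414). The mean within-cow change of 0.73 ± 0.46 (SD, n = 12) had an exact sign-flip permutation p of 4.9e-04.

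VEGFA ranged from 58.3 to 92.6 CPM at D7 (median 76.4), against 47.3 to 77.9 CPM at D3. The log2 fold change was 0.40 (SE 0.15) with an FDR of 0.155 in edgeR's quasi-likelihood test. Without the 5 milk-rich D-3 libraries, which share in the common estimate of the spread, the value was 0.39 with an FDR of 0.00584, when 5.1% of loci passed. VEGFA also passed on library sizes alone (0.44, FDR of 0.0497, with 36 of 14714 loci called) and with only the samples of both times (FDR of 0.0195). The mean within-cow change was 0.39 ± 0.29 (SD, n = 12), between 0.04 and 0.97, with an exact sign-flip permutation p of 4.9e-04.

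The steady state and the later redevelopment of the gland were examined by comparing D14 vs. D7 and D25 vs. D14. None of the 3 genes passed the threshold in either comparison, in which 0% and 0.0612% of loci passed, with 1.75% and 3.63% at an unadjusted p under 0.05 in edgeR's quasi-likelihood test. The differences were -0.06 and -0.02 on the log2 scale for VEGFA (SE 0.15 each), 0.14 and -0.05 for ANGPT2 (SE 0.29 and 0.28) and -0.01 and 0.11 for APLN (SE 0.43 each). The approximate 95% intervals around them ran from -0.36 to 0.28 for VEGFA, from -0.61 to 0.70 for ANGPT2 and from -0.85 to 0.95 for APLN. Changes within these bounds were not excluded. The intervals are not adjusted for the number of loci, so they do not give the smallest change that the FDR threshold could detect.

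At D14 VEGFA ranged from 60.0 to 90.5 CPM (median 71.5), and at D25 from 50.8 to 98.0 CPM (median 71.8). ANGPT2 ranged from 12.4 to 125 CPM at D14 (median 25.0) and from 22.3 to 70.4 CPM at D25 (median 29.2). APLN ranged from 6.21 to 66.1 CPM at D14 (median 12.5) and from 3.96 to 56.2 CPM at D25 (median 17.9). The spread of APLN between cows was wide at the late times, with the highest cow at 14.2 times the lowest at D25, against 1.93 times for VEGFA.

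The highest ANGPT2 and APLN values of all 60 libraries, 125 and 66.1 CPM, came from the D14 library of cow 7965, in which VEGFA was 68.2 CPM and held rank 36. The same library had the highest VEGFC, NRP2, EMCN, ROBO4 and MCAM. The summed level of the endothelial markers EMCN and ROBO4, the 2 of 17 listed markers that could be paired, was 251 CPM there, and 99.99 CPM was the median of all D14 libraries. Neither was at 0 in any group. The paired luminal marker KRT19 was 3.36 CPM, with a D14 median of 582 CPM. The part of this tissue composition in the ANGPT2 and APLN values was not tested, and in bulk tissue fewer cells of a type and less RNA per cell cannot be told apart. Without this library ANGPT2 differed by -0.26 between D14 and D7 and by 0.35 between D25 and D14, neither past the threshold in edgeR's quasi-likelihood test.

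Against D3, later days were higher for all 3 genes, past the threshold for ANGPT2 and APLN. The D14 vs. D3 and D25 vs. D3 differences of ANGPT2 were 0.97 (edgeR FDR of 0.0438, with 3.43% of loci called) and 0.92 (edgeR FDR of 0.041, with 6.02% of loci called). Leaving out 1 cow ended the call in 6 of 12 fits for the former and in 8 of 12 for the latter, with the highest edgeR FDR, 0.229 and 0.107, without cows 7965 and 8314. Without the D14 library of cow 7965 the ANGPT2 difference for D14 vs. D3 was 0.58 (edgeR FDR of 0.218). Those of APLN were 1.94 (edgeR FDR of 0.00951) and 2.05 (edgeR FDR of 0.0027), and the former was 1.53 without cow 7965 (edgeR FDR of 0.0514). For VEGFA they were 0.33 and 0.31 and did not pass (edgeR FDR of 0.227 and 0.223). Within cows VEGFA was higher in 11 and 10 of 12 cows (exact sign-flip permutation p of 0.0034 and 0.0059, not adjusted). These comparisons share the D3 samples.

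Compared with late lactation, only VEGFA passed the threshold at the later days, and this depended on the scaling and on the milk-rich libraries. VEGFA was lower at D7, D14 and D25 than at D-3 by 0.76, 0.82 and 0.84 on the log2 scale (edgeR FDR of 0.0014, 2.44e-04 and 1.92e-04), when 8.46%, 19.5% and 13.1% of loci passed. On library sizes alone the same differences were 0.04, 0.01 and 0.03, and without the 5 milk-rich libraries they were -0.02, -0.07 and -0.10, none of them called. ANGPT2 differed from D-3 by -0.44, -0.30 and -0.35 (edgeR FDR of 0.335 to 0.485) and APLN by 0.001, -0.01 and 0.10 (edgeR FDR of 0.908 to 0.998). The mean levels of VEGFA stood in the order D-3 (130 ± 69.0 CPM, SD, n = 12), D7 (77.0 ± 10.2), D14 (73.8 ± 10.7), D25 (72.7 ± 12.4) and D3 (58.5 ± 7.7). Of the neighbours in that order, D7, D14 and D25 did not differ beyond their spread, and D25 and D3 did not pass the threshold. Those of ANGPT2 stood in the order D-3 (42.0 ± 24.6 CPM), D14 (34.0 ± 30.0), D25 (32.9 ± 12.9), D7 (30.9 ± 14.7) and D3 (17.3 ± 4.88), and those of APLN in the order D25 (21.3 ± 17.7 CPM), D7 (19.93 ± 12.9), D-3 (19.9 ± 10.3), D14 (19.8 ± 17.8) and D3 (5.15 ± 6.59). In these orders D3 was last for each gene, and the 4 other times of ANGPT2 and of APLN did not differ beyond their spread.

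The effect of heat stress was examined by comparing HT and CL cows at each time point, 15 comparisons in all. None of the 3 genes passed the FDR threshold at any time, when 0% of the 14714 loci did in edgeR's quasi-likelihood test. At an unadjusted p under 0.05 there were 298 loci before treatment (2.03%), then 97 (0.659%), 672 (4.57%), 247 (1.68%) and 333 (2.26%) at the later samplings in turn. The largest difference of the 3 genes relative to its error was that of ANGPT2 at D7, which was 1.10 higher on the log2 scale in HT cows.

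At D7 ANGPT2 ranged from 22.8 to 58.0 CPM in HT cows (median 44.8) and from 14.3 to 29.4 CPM in CL cows (median 18.5). The ranges overlapped through the lowest HT cow, 8660, and the highest CL cow, 8647, and in 35 of the 36 pairs of an HT and a CL cow the HT cow was higher. Mean levels were 42.2 ± 11.9 CPM in HT and 19.6 ± 5.55 CPM in CL (SD, n = 6 each). The log2 difference of 1.10 (SE 0.23) had an unadjusted p of 3.3e-04 and an FDR of 0.959 in edgeR's quasi-likelihood test. It was past the threshold in DESeq2 (1.11, FDR of 0.0434), which called 3 loci (0.0204%). It also passed in edgeR with the tagwise dispersions that the methods of the study name (FDR of 0.00776), which called 5 loci (0.034%). The only gene that the paper reported past its FDR threshold between HT and CL was non-annotated and belonged to a later day. At D7 the paper reported none. The exact permutation test over all choices of 6 of 12 cows gave p = 0.0043, for which the smallest possible is 0.0022. Leaving out each cow in turn gave differences from 0.99 to 1.26.

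None of the 17 paired pathway genes or of the paired cell type markers passed the threshold at D7 between HT and CL, and those named next were chosen after their values were seen. HT minus CL was 0.91 for the endothelial marker ROBO4 (SE 0.25) and 0.20 for EMCN (SE 0.16). MCAM, an adhesion molecule of vessel walls, differed by 0.85 (SE 0.30), the glucose transporter gene SLC2A1 by 0.56 (SE 0.16) and TIMP3 by 0.55 (SE 0.18), while VEGFB, VEGFC and ANGPT1 differed by 0.08, 0.05 and 0.02 and THBS1 by -0.33. The summed level of EMCN and ROBO4 was 96.6 to 178 CPM in HT cows and 57.5 to 107 CPM in CL cows at D7. The luminal marker KRT19 was 488 to 984 CPM in HT and 259 to 648 CPM in CL cows. The milk protein genes CSN1S1, CSN2 and LALBA differed by 2.73, 2.73 and 3.51 (SE 1.34, 1.28 and 1.81), and the median of their sum was 27667 CPM in HT and 2180 CPM in CL cows. The part of milk protein reads in the VEGFA and ANGPT2 differences at D7 was not tested. Nor was that of tissue composition.

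VEGFA at D7 ranged from 74.7 to 92.6 CPM in HT cows and from 58.3 to 82.4 CPM in CL cows, with means of 83.6 ± 7.11 and 70.3 ± 8.54 CPM (SD, n = 6 each). The log2 difference was 0.25 (SE 0.10, unadjusted p of 0.0295 and FDR of 0.959 in edgeR's quasi-likelihood test), the exact permutation p was 0.0173, and on library sizes alone the difference was 0.11. APLN at D7 ranged from 11.6 to 53.3 CPM in HT and from 9.79 to 35.7 CPM in CL cows, with a difference of 0.45 (SE 0.40, edgeR FDR of 0.959). At D3 ANGPT2 ranged from 14.3 to 29.7 CPM in HT and from 11.5 to 17.3 CPM in CL cows, a difference of 0.46 (SE 0.19, unadjusted edgeR p = 0.0261, exact permutation p = 0.0238). APLN at D3 differed by -0.57 (SE 0.67), a value set by cow 8686, without which HT was higher by 0.79 (unadjusted p of 0.0486 and FDR of 1 in edgeR's quasi-likelihood test).

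At D14 and D25 the ranges of HT and CL overlapped for each gene. At D14 the differences were -0.11 for VEGFA (SE 0.13), -0.54 for ANGPT2 (SE 0.51) and -0.68 for APLN (SE 0.57), and that of ANGPT2 was 0.24 without cow 7965. At D25 they were -0.15 (SE 0.14), 0.43 (SE 0.23) and -0.17 (SE 0.68). At D-3, before the treatments, they were 0.01 (SE 0.41), -0.26 (SE 0.47) and 0.22 (SE 0.44).

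**Figure D4:**
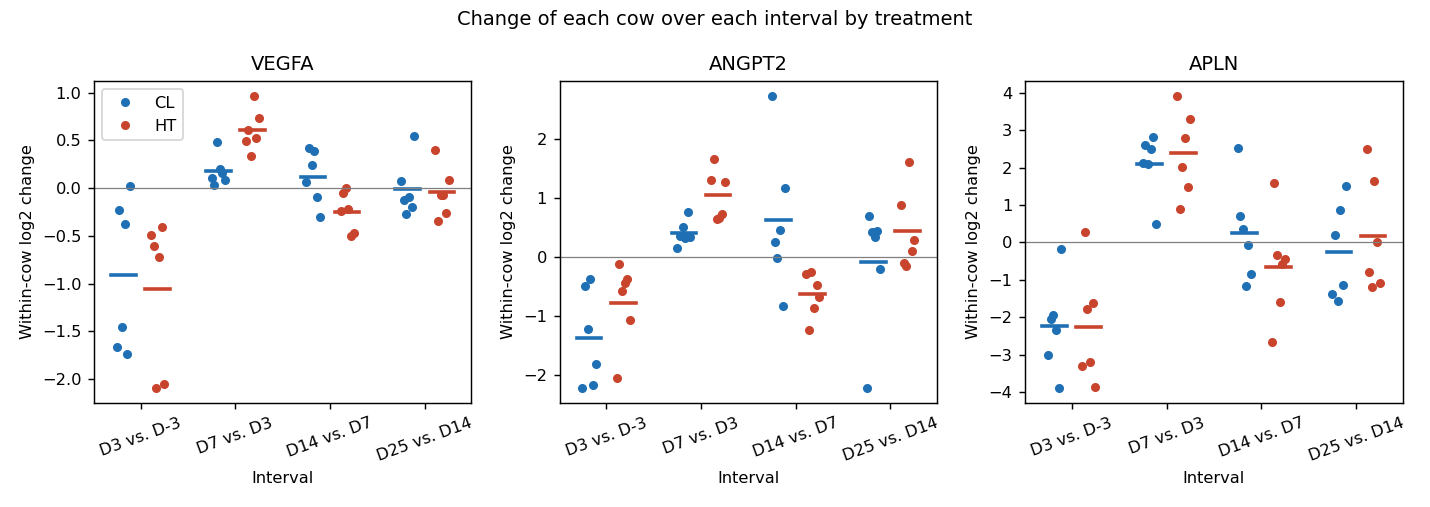
log2 change of each cow between consecutive samplings (points) and group means (bars) in 6 CL (blue) and 6 HT (red) cows. From D3 to D7 all cows of both treatments lie above 0 for each gene, with HT higher for VEGFA and ANGPT2, and from D7 to D14 all 6 HT cows lie below 0 for ANGPT2.

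Whether HT and CL cows changed differently was tested as the interaction of treatment and time. No locus passed the threshold in any interval (0% of 14714), with 45 to 185 loci at an unadjusted p under 0.05. For ANGPT2 the D14 vs. D7 interaction was -1.64 (SE 0.53, unadjusted p of 0.0034 and FDR of 1 in edgeR's quasi-likelihood test), and -0.86 without the D14 library of cow 7965 (unadjusted p of 0.0679). Within cows, ANGPT2 changed from D3 to D7 by 1.05 ± 0.42 in HT and 0.41 ± 0.21 in CL (SD, n = 6 each), and the exact permutation p of the difference of 0.64 was 0.0087. From D7 to D14 it changed by -0.64 ± 0.38 in HT, with 6 of 6 cows lower, and by 0.63 ± 1.22 in CL, with 2 of 6 lower (exact permutation p = 0.0195). Without cow 7965 the CL change was 0.21 ± 0.73 (SD, n = 5) and HT minus CL went from -1.27 to -0.84 (exact permutation p = 0.0325). VEGFA changed from D3 to D7 by 0.61 ± 0.22 in HT and 0.17 ± 0.16 in CL (exact permutation p = 0.0043). From D7 to D14 it changed by -0.25 ± 0.21 and 0.12 ± 0.28 (exact permutation p = 0.0390). This difference of -0.37 was -0.21 on library sizes alone (exact permutation p = 0.245) and -0.38 without cow 7965 (p = 0.0519). For APLN none of the 4 intervals had an exact permutation p under 0.26. These were 12 comparisons, and on library sizes alone the D7 vs. D3 differences between treatments were 0.31 for VEGFA (exact permutation p = 0.158) and 0.51 for ANGPT2 (p = 0.0693).

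Ligands, receptors and other genes of the same pathways were followed where their symbols could be paired, which was the case for 17 of 62 listed genes. Because the pairing used tables of the loci with the smallest p-values in both of the early comparisons, these 17 are not independent of those comparisons. At D3 vs. D-3, 8 of the 17 were lower and 3 higher in edgeR's quasi-likelihood test, when 15.1% of all loci passed and 9.04% passed as lower, with a median log2 fold change of -0.57 against -0.01 over all loci. On library sizes alone 1 was lower and 5 higher, when 175 of all 14714 loci passed as lower and 2216 as higher. The median was then 0.03 against 0.35 over all loci. Without the 5 milk-rich D-3 libraries, 6 of the 8 genes that were lower changed sign, KDR, FLT1, SLC2A1, EGLN1, UNC5B and ANG, with differences of 0.03 to 0.34, while HK2 (-0.15) and VEGFC (-0.43) stayed lower, as did the 3 members, and none of them was called. Of the VEGF receptors, KDR was lower by 0.95 (SE 0.22, edgeR FDR of 0.0023) and FLT1 by 0.86 (SE 0.21, FDR of 0.00415), and the co-receptor NRP2 differed by -0.17 (FDR of 0.661). VEGFC, the lymphatic VEGF, fell by 0.57 on the log2 scale (edgeR FDR of 0.0357), and VEGFB differed by 0.33 (FDR of 0.0848). ANGPT1, the ligand that ANGPT2 opposes, differed by -0.69 (SE 0.25, edgeR FDR of 0.0518) and passed with the cow as a replicate block (-0.70, FDR of 0.0189).

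Among genes responsive to low oxygen, SLC2A1 and HK2, for glucose uptake and phosphorylation, were lower by 1.31 and 1.21 (edgeR FDR of 3.72e-04 and 7.40e-04), EGLN1, an oxygen sensor, was lower by 0.63 (FDR of 0.0059), MXI1, a MYC antagonist, rose by 0.42 (FDR of 0.0413) and ERO1A differed by 0.27 (FDR of 0.272). The netrin receptor gene UNC5B, a tip cell gene, was lower by 0.84 (edgeR FDR of 0.012), and ANG, at a locus that joins several genes, by 1.15 (FDR of 0.00631). PDGFA, a growth factor for mural and mesenchymal cells, rose by 0.67 (edgeR FDR of 0.00265), and so did THBS1, an inhibitor of angiogenesis, by 1.33 (FDR of 0.0105). The endothelial markers EMCN and ROBO4 were lower by 0.49 and 0.74 (edgeR FDR of 0.0179 and 0.027). The lowest and highest sums of both were 56.0 and 209 CPM at D-3, and 55.1 and 140 CPM at D3, with no marker at 0. Markers of other cells also moved at D3 vs. D-3. All marker values here are TMM-scaled and include the 5 milk-rich D-3 libraries, on which the size of the members' differences depended. The adipocyte gene FABP4 fell by 1.71 on the log2 scale (edgeR FDR of 0.013), ADIPOQ differed by -0.84 (FDR of 0.214), and the median of their sum, 2 of 5 listed adipocyte markers, went from 152 to 59.8 CPM. The basal keratin KRT5 rose by 1.01 (edgeR FDR of 0.019), and so did the skeletal muscle gene MYH2 by 2.95 (FDR of 0.00913). MYH2 and MYH7 were the 2 of 7 listed muscle markers that could be paired, and the median of their sum went from 1.09 to 4.03 CPM. MYH7 alone differed by -0.29 (edgeR FDR of 0.660), with medians of 0.33 CPM at D-3 and 0.23 CPM at D3. The part of these cells in the changes of ANGPT2 and APLN was not tested.

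At D7 vs. D3, 1 of the 17 genes was higher and 3 were lower in edgeR's quasi-likelihood test, when 2.92% of all loci passed and 0.625% passed as higher, with a median of -0.03. NID2, a basement membrane gene of tip cells, rose by 0.55 (edgeR FDR of 0.0364), while PDGFA, THBS1 and TIMP3, a protease inhibitor, fell by 0.69, 1.28 and 0.85 (FDR of 0.0123, 0.0431 and 0.0123). KDR, FLT1 and NRP2 differed by 0.29, -0.03 and 0.62, and ANGPT1 by 0.72 (edgeR FDR of 0.0999). The lowest and highest KDR values were 58.9 and 371 CPM at D-3, 58.2 and 172 CPM at D3, and 90.5 and 157 CPM at D7. With the cow as a replicate block NRP2 (0.67, edgeR FDR of 0.0247) and ANGPT1 (0.84, FDR of 0.0175) were also called higher and MXI1 (-0.45, FDR of 0.0343) lower at D7 vs. D3, 7 genes in all, when 5.99% of all loci passed. None of the 17 passed in the later intervals. NRP1, TEK, TIE1 and APLNR were among the genes that could not be paired and were not analysed here.

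**Figure D5:**
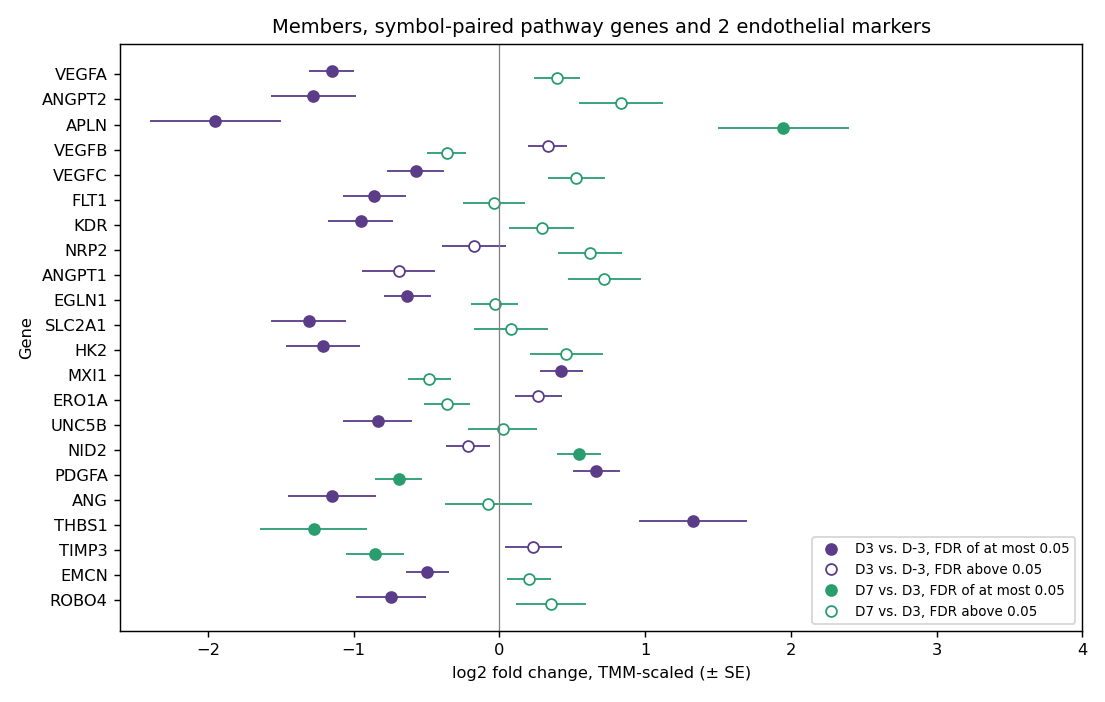
log2 fold changes (points, with bars of 1 SE) at D3 vs. D-3 (purple) and D7 vs. D3 (green) on TMM-scaled library sizes for the 3 genes, the 17 paired pathway genes and the endothelial markers EMCN and ROBO4. Filled points have an FDR of at most 0.05 in edgeR's quasi-likelihood test. The 3 genes are negative at D3 vs. D-3 and positive at D7 vs. D3, with APLN filled in both. Some pathway genes lie further out than VEGFA in each comparison.

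The genes whose pattern was most like that of each member were taken from 2807 other symbol-paired loci over the 60 libraries of 12 cows, which share cows, scaling and the milk-rich samples. For VEGFA they were POLR3K (r = 0.88), DHRS11 (0.87), SERHL2 (0.86), ARFIP2 (0.86) and PSAT1 (0.86), with lower rank correlations of 0.48 to 0.65. For ANGPT2 they were SDPR (r = 0.79), ROBO4 (0.78), EBF1 (0.73), KIF25 (0.72) and FILIP1 (0.71), and for APLN they were NT5DC2 (0.77), TRPV1 (0.76), SUFU (0.74), CEP85 (0.73) and NCKAP5 (0.72). After the mean of each treatment and time was subtracted, the closest were SERHL2, SLC7A1, LARP4B, GPAT4 and ARFIP2 for VEGFA (r = 0.88 to 0.84), SDPR, ROBO4, VEGFC, COLEC12 and OMD for ANGPT2 (0.75 to 0.65) and SUFU, NT5DC2, CHD3, DHX33 and TBC1D16 for APLN (0.75 to 0.69). Among themselves the members correlated by 0.48 (VEGFA and ANGPT2), 0.39 (VEGFA and APLN) and 0.50 (ANGPT2 and APLN), and by 0.33, 0.14 and 0.30 after that subtraction.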

How the data were processed

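The authors sequenced unsorted mammary biopsies as single-ended Illumina reads. Per the labels they used Trim Galore 0.4.1, TopHat2 2.0.13, Cufflinks 2.2.1 and HTSeq. The genome was bosTau7 in the methods and UMD3.1 in the processing notes, so no coordinates are given. The deposited values are counts of reads per assembled locus, not normalized. The library kit does not mark strand, so antisense reads cannot be told apart.

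Each of 25223 loci entered once, and 14714 of them were tested, those that reached 1 CPM in 6 samples or more. Time points were compared in 1 fit of all 60 samples, HT and CL in a fit of each time point, with TMM factors and edgeR 4.0.16 (quasi-likelihood F-test, trended dispersions, R 4.3.3) and Benjamini-Hochberg FDR over all tested loci. The study names tagwise dispersions. DESeq2 1.42.0 was an alternative. SE is the log2 fold change over the root of F. Total counts per library are given with the results. Log2 values used a prior count of 2. Two-sided exact tests (scipy 1.17.1) used sign changes within cows (30 comparisons) or choices of cows. The fits were tested on simulated data.

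Samples of 1 cow are pairs. Deviations from group means correlated by 0.29 on average between days of 1 cow and by -0.03 between cows.

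Symbols came from shortened tables of the study, which paired 3033 loci. The named genes were the 3 members, for each the 5 paired loci of highest correlation before and after subtracting group means, the VEGF, TIE and apelin receptors, and for each pathway list at most 6 paired genes called in D3 vs. D-3 or D7 vs. D3. Other paired list genes that are named were added after their values were seen. Members and lists were chosen with earlier results of these data known. No sequences were printed because none were at hand. Alternatives added after seeing the data were fits without the milk-rich libraries and the settings of the treatment differences in within-cow change.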

Additional observations from a re-analysis of the deposited data

Results flagged for a closer look

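Of 30 groups of 6 cows, 2 held a cow far from the other 5 by Dixon's test on log2 CPM, and chance flags about 1 in 20 such groups. Both were in APLN, with cow 8686 at 25.4 CPM among CL cows at D3 and cow 8513 at 41.9 CPM among HT cows at D14. Cow 8513 is a cow whose late libraries resembled the earlier ones of another cow.

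Within-cow changes differed between HT and CL in 4 of 12 tests, not adjusted for the number of tests. By exact permutation, HT minus CL on the log2 scale was 0.44 for VEGFA from D3 to D7 (p = 0.0043) and -0.37 from D7 to D14 (p = 0.0390), and 0.64 for ANGPT2 from D3 to D7 (p = 0.0087) and -1.27 from D7 to D14 (p = 0.0195). Without cows 8513 and 8660 the 4 values were 0.35, -0.42, 0.58 and -1.05, with exact permutation p-values of 0.0190, 0.0476, 0.0143 and 0.124. Without cow 7965 they were 0.42, -0.38, 0.59 and -0.84 (exact permutation p-values of 0.0108, 0.0519, 0.0238 and 0.0325), and on library sizes alone 0.31, -0.21, 0.51 and -1.11 (0.158, 0.245, 0.0693 and 0.0216). None of the interactions passed an FDR of 0.05 in edgeR.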

How the results depend on the processing

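Of the values recomputed for the main comparisons, 742 kept their direction and their side of the threshold, 43 changed sign, 9 gained a call, 7 lost one, and 2 counts of pathway genes moved by over 1.5 times. On library sizes alone, which moved the median of all loci by 0.35 to 0.48 in comparisons with D-3, VEGFA differed by 0.043, 0.0099 and 0.033 and ANGPT2 by 0.14, 0.26 and 0.31 for D7, D14 and D25 vs. D-3, and APLN by 0.35 for D14 vs. D-3. With this scaling ANGPT2 lost its call at D3 vs. D-3 (-0.75) and D14 vs. D3 (1.02). VEGFA gained one at D7 vs. D3 (0.44) and D25 vs. D3 (0.43). The correlations with milk share became -0.61 for VEGFA, -0.39 for ANGPT2 and -0.65 for APLN. The sign changed at D25 vs. D14 (VEGFA 0.023, ANGPT2 0.050), HT vs. CL at D-3 (ANGPT2 0.14), D3 vs. D-3 (EGLN1 0.034, NRP2 0.043) and D7 vs. D3 (FLT1 0.012). Of the 17 pathway genes 6 in place of 11 were then called at D3 vs. D-3, more of them higher than lower, and 1 in place of 4 at D7 vs. D3. Of all 14714 loci 2391 in place of 2217 were called at D3 vs. D-3, 2216 of them higher, and 36 in place of 430 at D7 vs. D3. Without the 5 milk-rich libraries (chosen after seeing the data) the D3 vs. D-3 differences of VEGFA (-0.41), ANGPT2 (-0.92) and APLN (-2.02), those of VEGFA at D7 (-0.017) and D25 vs. D-3 (-0.10) and ANGPT2 over all times (FDR 0.120) were no longer called in edgeR, VEGFA was called at D7 vs. D3 (0.39), and the sign changed for ANGPT2 at D14 vs. D-3 (0.056), APLN at D7 vs. D-3 (-0.075), and at D3 vs. D-3 for KDR (0.025), FLT1 (0.17), SLC2A1 (0.069), EGLN1 (0.037), UNC5B (0.074) and ANG (0.34).

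The replicate block, in which samples of 1 cow are paired, called ANGPT2 at D7 vs. D3 (0.80) and 7 pathway genes there, with ANGPT1 also at D3 vs. D-3 and the marker ADIPOQ at D7 vs. D3, and changed no other call of VEGFA, ANGPT2 or APLN. With it APLN differed by -0.085 at D7 vs. D-3, -0.26 at D25 vs. D-3 and -0.16 at D25 vs. D14 and ANGPT2 by 0.14 at D25 vs. D14, each with the sign turned and no call. With only the samples of both times, VEGFA (0.39) and ANGPT2 (0.83) were called at D7 vs. D3, VEGFA lost its call at D7 vs. D-3 (-0.75), and APLN was 0.0076 at D14 vs. D-3. The D7 difference of ANGPT2 between HT and CL was called by DESeq2 (1.11) and with tagwise dispersions (1.10). Without the D14 library of cow 7965, ANGPT2 was called at D7 vs. D3 (0.84) and changed sign at D14 vs. D7 (-0.26) and D25 vs. D14 (0.35), as did the D25 vs. D14 interaction of APLN (-0.090). Without cows 8513 and 8660, ANGPT2 for HT vs. CL at D-3 was 0.057, VEGFA at D25 vs. D14 was 0.0044, and its D25 vs. D14 treatment differences were 0.070 (interaction) and 0.048 (within cows). ANGPT2 lost its call at D25 vs. D3 without those cows (0.91) and with no filter on low counts (0.91). With TMM factors that leave out milk protein genes APLN at D7 vs. D-3 was -0.0016, and on log2 CPM, the scale of the exact permutation, APLN for HT vs. CL at D3 was 0.075 and VEGFA at D-3 was -0.031. The causes were not tested.

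Leaving out each cow in turn gave ranges that crossed 0, all without a call, for APLN at D7 vs. D-3 (-0.14 to 0.10), D14 vs. D-3 (-0.35 to 0.19), D25 vs. D-3 (-0.071 to 0.24), D14 vs. D7 (-0.41 to 0.30) and D25 vs. D14 (-0.14 to 0.43), for ANGPT2 at D14 vs. D7 (-0.31 to 0.30) and D25 vs. D14 (-0.19 to 0.37), and for VEGFA at D25 vs. D14 (-0.081 to 0.0082) and FLT1 at D7 vs. D3 (-0.10 to 0.080). The same held for HT vs. CL of VEGFA at D-3 (-0.30 to 0.22), APLN at D3 (-0.82 to 0.79) and D25 (-0.63 to 0.34) and ANGPT2 at D14 (-0.70 to 0.24), and at D7 for VEGFB (-0.054 to 0.17), VEGFC (-0.12 to 0.16) and ANGPT1 (-0.093 to 0.11). HT vs. CL at D7 was also below 0 for VEGFB (-0.072) and ANGPT1 (-0.12) on library sizes alone and for VEGFB (-0.076) and VEGFC (-0.037) without cows 8513 and 8660. ANGPT2 at D7 vs. D3 ranged from 0.72 to 0.88 and was called without cow 7965, that at D25 vs. D3 ranged from 0.78 to 0.999 on either side of the threshold, and its FDR over all times ranged from 0.00902 to 0.0521 in edgeR, the latter without cow 8647. With 32 reads in the lowest library, depth limited the D3 values of APLN most.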
